A study of Mus musculus with 24 samples.

Results

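The genes described here are 10 adhesion and filament genes often used to follow the shift between epithelial and mesenchymal states: Cdh1, Cdh2, Epcam, Cldn4, Cldn6, Krt8, Krt18, Krt19, Vim and Fn1. They were chosen by symbol, with no measured value in the rule but with earlier results of these data known. All 10 were found among the 54242 gene symbols of the table and passed the filter on low values. RNA-seq was performed on 24 libraries of CGR8 cells, a mouse ESC line, 3 independent libraries in each of 8 groups. At day 0, ESCs in serum with LIF carried a pool of non-targeting siRNAs (si-CTL) or a pool of siRNAs against Rsl24d1 (si-Rsl24d1), and each was collected without or with rescue, that is, doxycycline-induced ectopic RSL24D1. At day 4, the same 4 conditions had been seeded after transfection and given 10 nM retinoic acid (RA) for 4 days. The rescue was made in a CGR8 line with an inducible Rsl24d1 open reading frame, and doxycycline was given to si-CTL cells with rescue too, so doxycycline and ectopic RSL24D1 cannot be told apart in them. The labels differ from the study's methods on whether LIF was kept with RA, on 48 h or 72 h after transfection, and on whether cells without doxycycline held an empty vector.

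Epithelial cells adhere through E-cadherin (Cdh1), whose cytoplasmic tail binds catenins at adherens junctions, and through tight junctions built from claudins. Epcam is a surface adhesion molecule of epithelia and of pluripotent cells, and keratins 8, 18 and 19 form the filaments of simple epithelia, a type II keratin pairing with a type I keratin. Mesenchymal cells typically express N-cadherin (Cdh2), the filament protein vimentin (Vim) and the matrix glycoprotein fibronectin (Fn1), which integrins bind. Mouse ESCs grow as compact E-cadherin-positive colonies, and an epithelial to mesenchymal transition accompanies gastrulation in the embryo.

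The values are log2(TPM + 1), a level per transcript length, so levels of different genes can be compared. The TPM sum to 1000000 in each library, which keeps no depth. Each group mean therefore rests on 3 libraries, and the spread used by limma is shared by the 8 groups. The 8 pluripotency markers listed for the cell type check were all at 1 TPM or more in each group. Rsl24d1 itself was at 7.22, 7.14 and 7.10 in day 0 si-CTL libraries and at 5.23, 5.28 and 5.07 in day 0 si-Rsl24d1 libraries, a change of -1.95 (SE 0.07, limma adjusted p = 3.24e-14). At day 4 it was at 6.60, 6.67 and 6.61 in si-CTL and at 6.50, 6.61 and 6.65 in si-Rsl24d1 libraries, which overlap (-0.04, adjusted p = 0.66), so day 4 libraries are called here by their labels and not as depleted. The median change also differed with transcript length in several comparisons. Of the members, Cdh1 (longest annotated transcript 4430 bases), Cdh2 (4843) and Fn1 (8315) are long, and the others are between 1437 and 2193 bases, so the median of genes over 4000 bases is given for comparisons in which the long members are described. In bulk libraries, fewer cells of a type and less RNA per cell cannot be told apart.

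On GRCm38, Krt8 (15:101996698-102004482, minus strand) and Krt18 (15:102028180-102032027, plus strand) lie next to each other on chromosome 15 and are read away from each other, with starts 23698 bases apart, whereas Krt19 lies on chromosome 11 (100140810-100148665). Cdh1 lies at 8:106603351-106670246, Epcam at 17:87635979-87651129, Vim at 2:13573927-13582826 and Fn1 at 1:71585520-71653200. Promoters of 6 members (Epcam, Vim, Cldn4, Cldn6, Krt8 and Krt18) were matched in RefSeq on GRCm38.p6. The 250 bases before the start of RefSeq are shown for the keratin pair, which rose together in the libraries labelled si-Rsl24d1 at day 4, and for Epcam and Vim, which changed in opposite directions under RA. RefSeq and GENCODE starts differ, so that the Vim window lies within the GENCODE span of Vim, and the Krt8 and Krt18 windows reach into those of their genes. Capitals mark matches, on either strand, to the E-box CAGGTG, which Snail and Zeb repressors bind, the GC box GGGCGG, the TATA box TATAAA and the retinoid receptor motif AGGTCA. The AP-1 site TGANTCA was also searched on both strands and has no match in these 4 windows.
Krt8 (15:102004343-102004592, minus strand): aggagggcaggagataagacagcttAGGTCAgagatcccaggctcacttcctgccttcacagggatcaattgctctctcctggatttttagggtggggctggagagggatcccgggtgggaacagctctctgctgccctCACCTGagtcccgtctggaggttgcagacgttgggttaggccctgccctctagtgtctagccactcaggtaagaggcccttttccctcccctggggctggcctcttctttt
Krt18 (15:102027966-102028215, plus strand): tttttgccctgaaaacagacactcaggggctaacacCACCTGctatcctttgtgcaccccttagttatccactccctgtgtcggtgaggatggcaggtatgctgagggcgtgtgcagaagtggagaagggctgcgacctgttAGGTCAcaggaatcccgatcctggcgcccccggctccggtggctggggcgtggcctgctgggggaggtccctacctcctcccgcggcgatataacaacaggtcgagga
Epcam (17:87635729-87635978, plus strand): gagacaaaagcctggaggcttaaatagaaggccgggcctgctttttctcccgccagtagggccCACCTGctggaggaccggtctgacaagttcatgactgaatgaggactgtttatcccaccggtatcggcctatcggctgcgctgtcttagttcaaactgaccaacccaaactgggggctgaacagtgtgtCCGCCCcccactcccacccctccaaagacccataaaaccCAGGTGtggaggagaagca
Vim (2:13574061-13574310, plus strand): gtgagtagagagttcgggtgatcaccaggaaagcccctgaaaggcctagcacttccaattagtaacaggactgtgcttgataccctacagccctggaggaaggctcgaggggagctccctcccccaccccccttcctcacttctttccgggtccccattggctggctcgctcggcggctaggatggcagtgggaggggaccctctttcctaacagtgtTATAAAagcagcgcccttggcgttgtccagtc
The E-box letters were found in 5 of the 6 windows, counted in bases from the RefSeq start at -111 in Krt8, -214 in Krt18, -187 and -19 in Epcam, -14 in Cldn4 and -93 in Cldn6, and not in the Vim window. Of all 32851 promoters of that length, 17.2% hold them. AGGTCA, held by 14.0% of promoters, was at -225 in Krt8, -108 in Krt18 and -217 in Cldn4. The Vim window holds TATAAA at -32, a match found in 12.4% of promoters. GGGCGG, in 32.7% of promoters, was found in Epcam, Cldn4 and Cldn6, and TGANTCA, in 6.75%, only in Cldn4 among the 6. No match overlapped another, and a match describes letters, not a bound site.

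In day 0 si-CTL cells, epithelial and mesenchymal members were expressed side by side. Fn1 was the most abundant member at 224 ± 20.2 TPM (SD, n = 3), followed by Cdh1 at 208 ± 21.5 TPM, Epcam at 159 ± 1.48 TPM, Krt8 at 147 ± 1.98 TPM and Vim at 142 ± 4.40 TPM. Krt18 was at 137 ± 3.40 TPM, Krt19 at 86.1 ± 2.92 TPM, Cldn6 at 79.4 ± 1.85 TPM and Cldn4 at 78.2 ± 1.26 TPM. Cdh2 stood apart at 7.40 ± 1.15 TPM. After 4 days of RA in si-CTL cells the order had changed. Vim led at 241 ± 4.87 TPM, ahead of Fn1 at 219 ± 5.40 TPM and Krt18 at 198 ± 9.48 TPM, Cdh1 had dropped to 79.4 ± 3.48 TPM, and Cdh2 was lowest at 5.07 ± 0.0340 TPM.

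**Figure D1:**
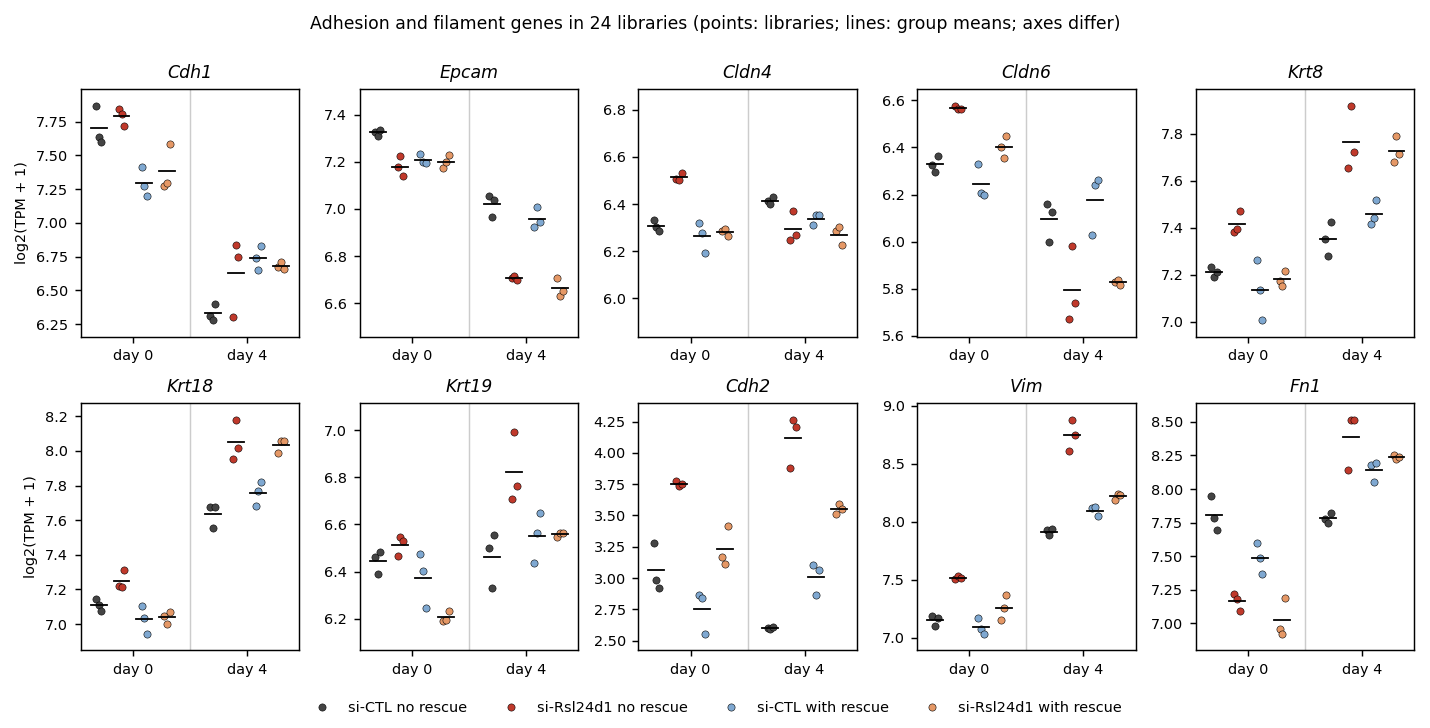
Level of each of the 10 members as log2(TPM + 1) (vertical axis, own range per panel) in the 24 libraries, with 4 conditions at day 0 on the left and at day 4 on the right of each panel. Points are libraries and lines are means of 3 libraries; Cdh1 lies between 7.20 and 7.87 in all day 0 libraries and between 6.28 and 6.84 in all day 4 libraries, and Vim lies between 7.04 and 7.53 at day 0 and between 7.88 and 8.88 at day 4.

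The first comparison asks how these genes change in control ESCs given RA for 4 days. Cdh1 was at 7.87, 7.64 and 7.60 at day 0 and at 6.31, 6.28 and 6.40 at day 4. No day 4 library reached the day 0 range, and the change was -1.37 (95% interval -1.60 to -1.15, limma adjusted p = 9.9e-10), or 0.382 of the day 0 TPM. Cdh1 was the only member to be called, which takes a change of more than 1.8-fold (0.848 as log2) besides an adjusted p under 0.01. That is 1 of 10 members, where 15.0% of all 16447 tested genes were called. By adjusted p alone 2 members rose and 4 fell, where 24.1% of genes rose and 36.7% fell. The median of all tested genes was -0.10 in this comparison and that of genes with transcripts over 4000 bases was -0.25, and Cdh1 was at -1.27 relative to the former and at -1.18 (adjusted p = 1.77e-12) once the length trend was removed.

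The N-cadherin gene fell as well, from 3.28, 2.98 and 2.92 to 2.60, 2.60 and 2.61, a change of -0.46 (SE 0.11, adjusted p = 0.00102). Both cadherin transcripts were thus lower at day 4 in control cells, Cdh2 by less than 1.8-fold. Without day 0 si-CTL no rescue replicate 1, the highest of the day 0 libraries, the Cdh2 change was -0.35 (adjusted p = 0.0106), and with the length trend removed it was -0.25 (adjusted p = 0.00167). Epcam fell from 7.33, 7.31 and 7.34 to 7.05, 6.97 and 7.04 (-0.31, SE 0.03, adjusted p = 4.46e-08), with no overlap between days.

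The claudins, which seal tight junctions, had small differences. Cldn6, a claudin of early embryonic epithelia, fell by 0.23 (adjusted p = 0.00478), a result that missed the threshold with median of ratios scaling (-0.10, adjusted p = 0.156) and without each of 3 single libraries, day 0 si-CTL no rescue replicate 1 (-0.23, adjusted p = 0.0131), replicate 3 (-0.22, adjusted p = 0.0194) or day 4 si-CTL no rescue replicate 2 (-0.18, adjusted p = 0.0345). Cldn4 differed by 0.11 (95% interval 0.03 to 0.18), with an adjusted p of 0.0104 that misses the threshold. It passed with median of ratios scaling (0.24, adjusted p = 1.36e-05) and with the length trend removed (0.15, adjusted p = 0.000177).

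Filament genes differed among themselves. Vim was at 7.19, 7.10 and 7.17 at day 0 and at 7.93, 7.88 and 7.94 at day 4. The 2 sets of libraries were well separated, and the rise of 0.76 (SE 0.06, adjusted p = 4.3e-10; 1.70-fold) was below the fold threshold, which it passed only with median of ratios scaling (0.89). Krt18 rose from 7.15, 7.11 and 7.07 to 7.67, 7.56 and 7.68 (0.53, SE 0.05, adjusted p = 4.69e-08). Its partner Krt8 differed by 0.14 (95% interval 0.01 to 0.27, adjusted p = 0.0519) and Krt19 by 0.02 (-0.13 to 0.17). Krt8 passed with median of ratios scaling (0.27, adjusted p = 7.94e-05) and with the length trend removed (0.19, adjusted p = 0.00361). Fn1 overlapped between days (-0.03, -0.21 to 0.16, adjusted p = 0.81), but this value depends on the handling of transcript length. It was 0.26 (adjusted p = 7.66e-09) with the trend removed, and 0.11 (adjusted p = 0.099) with median of ratios scaling.

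The summed TPM of the 8 pluripotency markers was between 5574 and 5733 at day 0 and between 7026 and 7210 at day 4. In day 4 si-CTL libraries Dppa5a was the highest of them at 12.4, with Pou5f1 next at 9.02 and Klf4 lowest at 3.94. The sum thus mostly follows Dppa5a and does not describe each marker. The study reports that many pluripotency markers fell strongly under RA, and that ectoderm and endoderm markers were preferentially induced. Summed markers of other cell types also differed between days. The summed TPM of 9 fibroblast or mesenchyme markers was between 39.1 and 48.4 in day 0 si-CTL libraries and between 97.6 and 105 at day 4, with 5 and then 7 of the 9 at a mean of 1 TPM or more. That of 10 primitive or visceral endoderm markers was between 11.9 and 15.1 at day 0, with Ttr at 0, and between 19.7 and 25.8 at day 4. Trophoblast markers (8 genes, Krt7 among them) lay between 51.2 and 56.8 at day 0 and between 65.8 and 69.9 at day 4. The sum of neural markers (8 genes, Neurog2 at 0 at day 0) was lower at day 4, between 93.7 and 102 and then between 37.4 and 37.9. Of these 8 genes, 4 at day 0 and 5 at day 4 were at a mean of 1 TPM or more, so the sum does not describe each marker. The sum of surface ectoderm markers (6 genes, 1 of them at a mean of 1 TPM or more on either day) was also lower, between 12.3 and 12.9 and then between 8.50 and 9.39. The part of these marker lists in the changes of the members was not tested.

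The same RA comparison was made in the other 3 conditions. Each of these comparisons has its own libraries, and day 4 si-Rsl24d1 libraries are set against day 0 si-Rsl24d1 libraries, in which Rsl24d1 was low. Of the 10 members, 3 were called in si-Rsl24d1 cells (14.1% of all genes), 3 in the rescued si-Rsl24d1 libraries (14.9%) and 1 where si-CTL cells had the rescue (15.6%). The median of all genes was 0.02, 0.06 and 0.12 in the same order, and that of genes over 4000 bases 0.01, 0.14 and 0.23. By adjusted p alone all 10 members changed in si-Rsl24d1 cells, 6 up and 4 down (29.4% and 26.4% of all genes), against 5 up and 3 down in rescued si-Rsl24d1 cells (32.4% and 25.8%), and 4 up and 2 down in si-CTL cells with rescue (36.8% and 22.4%). Vim was called higher in all 3, by 1.23, 0.96 and 1.00 (SE 0.06 each; adjusted p of 2.85e-13, 1.2e-11 and 6.61e-12). Cdh1 fell in all 3, by 1.16, 0.70 and 0.55 (SE 0.11 each; adjusted p of 1.2e-08, 1.02e-05 and 0.000145), the first past the fold threshold. With the length trend removed these falls were -1.18, -0.81 and -0.75. Epcam fell in all 3, by 0.47, 0.54 and 0.25 (adjusted p of 7.61e-11, 1.02e-11 and 7.07e-07), and Krt18 rose in all 3, by 0.80, 1.00 and 0.73 (adjusted p of 9.92e-11, 3.59e-12 and 4.07e-10), being called in rescued si-Rsl24d1 cells.

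Fn1 had the widest range among the 4 RA comparisons. In si-Rsl24d1 cells it was at 7.21, 7.18 and 7.09 at day 0 and at 8.14, 8.52 and 8.51 at day 4, a rise of 1.23 (SE 0.09, adjusted p = 3.05e-10), or 2.37-fold. It rose by 1.22 in rescued si-Rsl24d1 cells (adjusted p = 3.42e-10), and by 0.66 in si-CTL cells with rescue (adjusted p = 2.08e-06), the last being 0.37 with the length trend removed (adjusted p = 5.23e-11). The day 0 level of Fn1 from which this rise is counted was itself lower in si-Rsl24d1 than in si-CTL libraries. Cdh2 rose by 0.36 (adjusted p = 0.00688) in si-Rsl24d1 cells, a result that missed the threshold in 5 of the 6 fits that leave out 1 library (adjusted p up to 0.0442, without day 4 si-Rsl24d1 no rescue replicate 2) and passed it only without day 4 si-Rsl24d1 no rescue replicate 1. Its values of 0.32 in rescued cells (adjusted p = 0.0151) and 0.26 in si-CTL cells with rescue (adjusted p = 0.0454) missed the threshold.

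**Figure D2:**
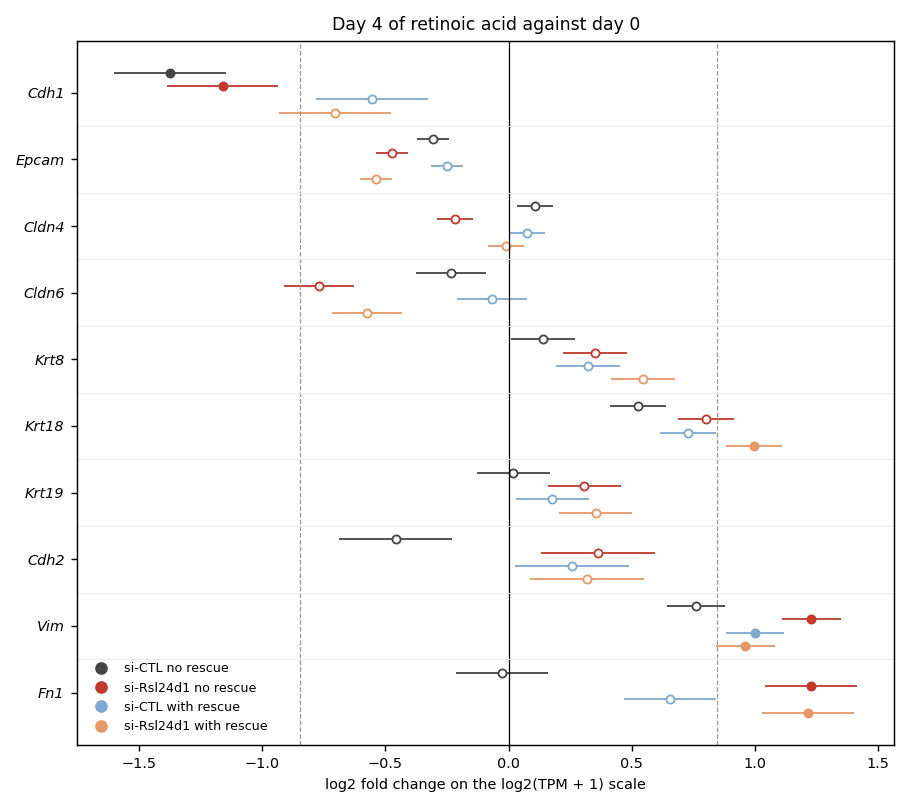
Change from day 0 to day 4 of RA (horizontal axis, log2 fold change on the log2(TPM + 1) scale) for each member in the 4 conditions, with 95% intervals from limma. Filled points are called, and dashed lines mark 1.8-fold; all 4 Cdh1 points lie below 0 (-1.37 to -0.55) and all 4 Vim points above 0 (0.76 to 1.23), whereas Fn1 lies at -0.03 in si-CTL no rescue and between 0.66 and 1.23 in the others.

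The second comparison asks what the Rsl24d1 siRNAs change in self-renewing ESCs. None of the 10 members was called with limma (8 had an unadjusted p below 0.05), where 4.18% of all genes were called. By adjusted p alone 4 rose and 2 fell, where 14.3% of genes rose and 16.1% fell by that rule. Cdh2 was at 3.28, 2.98 and 2.92 in si-CTL and at 3.77, 3.74 and 3.75 in si-Rsl24d1 libraries, all above (0.69, SE 0.11, adjusted p = 3.88e-05; 1.69-fold). Vim went from 7.19, 7.10 and 7.17 to 7.50, 7.53 and 7.52, again with no overlap (0.36, SE 0.06, adjusted p = 3.26e-05). The third mesenchymal member went the other way. Fn1 was at 7.95, 7.79 and 7.69 in si-CTL and at 7.21, 7.18 and 7.09 in si-Rsl24d1 libraries (-0.65, SE 0.09, adjusted p = 7.44e-06; 0.636 of the si-CTL TPM).

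Among the epithelial members at day 0, Epcam fell slightly, from 7.33, 7.31 and 7.34 to 7.18, 7.22 and 7.14 (-0.15, SE 0.03, adjusted p = 0.000887). Cldn4 rose by 0.21 (SE 0.04, adjusted p = 7.65e-05). Cldn6 rose by 0.24 (SE 0.07, adjusted p = 0.00791), a result that missed the threshold in each of the 6 fits that leave out 1 library (adjusted p 0.0141 to 0.0313) and with the replicate number as a block (adjusted p = 0.0125). Cdh1 libraries overlapped (0.09, 95% interval -0.14 to 0.32, adjusted p = 0.548), and the keratins differed by 0.07 for Krt19, 0.14 for Krt18 and 0.20 for Krt8, with adjusted p of 0.464, 0.0451 and 0.0125. Krt8 passed with median of ratios scaling (0.19, adjusted p = 0.00464) and with the length trend removed (0.23, adjusted p = 0.00151). The median of genes over 4000 bases was 0.01 here, so the comparison shows little length trend. Summed trophoblast markers were between 51.2 and 56.8 TPM in si-CTL and between 72.2 and 77.7 in si-Rsl24d1 libraries. Summed fibroblast or mesenchyme markers were between 39.1 and 48.4 and between 32.1 and 34.0, with Lum at 0 in the latter group. The latter sum does not describe each marker, as the differences of tested genes on that list ranged from -0.59 for Col1a1 to 0.97 for Twist1. Pluripotency markers were between 5574 and 5733 TPM and between 4629 and 4648 TPM. By gene their differences ranged from -1.09 for Esrrb to 0.04 for Tdgf1, with Dppa5a at -0.23. Surface ectoderm markers were between 12.3 and 12.9 and between 15.5 and 16.5, with 1 and 2 of the 6 at a mean of 1 TPM or more. The part of these marker lists was not tested.

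At day 4, when Rsl24d1 did not differ between the libraries labelled si-CTL and si-Rsl24d1, the member differences were wider. Cdh2 was at 2.60, 2.60 and 2.61 in si-CTL and at 3.88, 4.27 and 4.21 in the libraries labelled si-Rsl24d1, a gap far beyond the spread within either group (1.52, SE 0.11, adjusted p = 6.3e-09; 3.25-fold). It was the only member called, 1 of 10, where 1.63% of all genes were called. Vim was at 7.93, 7.88 and 7.94 and at 8.61, 8.88 and 8.75 (0.83, SE 0.06, adjusted p = 2.96e-09; 1.79-fold), just under the fold threshold, and it was called without day 4 si-Rsl24d1 no rescue replicate 1. Fn1 was at 7.78, 7.75 and 7.82 and at 8.14, 8.52 and 8.51 (0.61, SE 0.09, adjusted p = 3.72e-05).

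The length trend bears on these values. Genes over 4000 bases had a median of 0.29 and those up to 2000 bases of -0.02 in this comparison, while the median of all genes was 0.13, relative to which Vim was at 0.70 and Fn1 at 0.48. Day 4 si-Rsl24d1 no rescue replicate 1 differed from its group, with long genes 0.10 below short genes where the other 2 libraries had them 0.20 and 0.18 above. With the trend removed, Cdh2 was at 1.27 (adjusted p = 8.95e-11) and still called, whereas Fn1 was at 0.26 (adjusted p = 2.01e-07). Cdh1 was at 6.31, 6.28 and 6.40 in si-CTL and at 6.31, 6.84 and 6.75 in si-Rsl24d1 libraries, which overlap (0.30, adjusted p = 0.0287). It passed without replicate 1 of the latter group (0.46, adjusted p = 0.000342) and was at 0.08 (adjusted p = 0.35) with the length trend removed.

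The keratins rose together at day 4 in the libraries labelled si-Rsl24d1. Krt8 was at 7.35, 7.28 and 7.43 in si-CTL and at 7.66, 7.92 and 7.72 in si-Rsl24d1 libraries (0.41, SE 0.06, adjusted p = 4.48e-05). Krt18 was at 7.67, 7.56 and 7.68 and at 7.96, 8.18 and 8.02 (0.42, SE 0.05, adjusted p = 9.76e-06), and Krt19 rose by 0.36 (SE 0.07, adjusted p = 0.000553), a result that missed the threshold with median of ratios scaling (0.19, adjusted p = 0.0172). An annotated pseudogene, Krt8-ps on chromosome 7, may share reads with Krt8, so the Krt8 level is uncertain by that much.

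Epcam and Cldn6 fell. Epcam was at 7.05, 6.97 and 7.04 in si-CTL and at 6.71, 6.72 and 6.70 in si-Rsl24d1 libraries (-0.31, SE 0.03, adjusted p = 4.75e-07), with little spread in either group. Cldn6 fell by 0.30 (SE 0.07, adjusted p = 0.00168), a result that missed the threshold without day 4 si-CTL no rescue replicate 1 (adjusted p = 0.0115) or day 4 si-Rsl24d1 no rescue replicate 3 (adjusted p = 0.0119). Cldn4 was 0.12 lower (adjusted p = 0.0101), just short of the threshold. It passed with median of ratios scaling (-0.29, adjusted p = 1.23e-05) and with the length trend removed (-0.16, adjusted p = 0.000291). By adjusted p alone 6 members rose and 2 fell, where 24.9% of all genes rose and 6.04% fell. Summed fibroblast or mesenchyme markers were between 97.6 and 105 TPM in si-CTL and between 189 and 260 TPM in si-Rsl24d1 libraries (7 and 8 of 9 at 1 TPM or more), primitive or visceral endoderm markers between 19.7 and 25.8 and between 40.2 and 52.9 (4 and 6 of 10), and trophoblast markers between 65.8 and 69.9 and between 94.0 and 110 (6 of 8 in both). None of these markers was at 0 in all 3 libraries of a group, and their part in the member changes was not tested.

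Whether the siRNA difference depended on the day was tested directly, as the day 4 difference minus the day 0 difference. Of the 10 members, 1 was called (5.61% of all genes): Fn1, which fell by 0.65 at day 0 and rose by 0.61 at day 4, a difference between days of 1.25 (SE 0.13, adjusted p = 2.37e-07) that was 0.94 (adjusted p = 1.29e-13) with the length trend removed. By adjusted p alone 4 members had a positive and 3 a negative difference between days, where 22.1% and 8.83% of all genes did. The difference was also larger at day 4 for Cdh2 (0.82, adjusted p = 0.000316), Vim (0.47, adjusted p = 0.000116) and Krt18 (0.28, adjusted p = 0.00669). It was more negative at day 4 for Epcam (-0.17, adjusted p = 0.00507). Both claudins rose with the siRNAs at day 0, and the day 4 difference was more negative, with a difference between days of -0.33 (adjusted p = 3.41e-05) for Cldn4, which did not pass at day 4, and of -0.54 (adjusted p = 0.000182) for Cldn6, which fell. For Cdh1 (0.21, 95% interval -0.11 to 0.53), Krt8 (0.21, 0.03 to 0.39) and Krt19 (0.29, 0.08 to 0.50) the difference between days missed the threshold. The Krt18 result missed the threshold without replicate 1 or 2 of either day 0 group or replicate 2 of either day 4 group (adjusted p 0.0132 to 0.0229), with scaling (0.12, adjusted p = 0.161) and with the length trend removed (0.24, adjusted p = 0.0116). The Epcam result missed it without replicate 1 or 2 of either day 0 group, day 4 si-CTL replicate 1 or 3 or day 4 si-Rsl24d1 replicate 3 (adjusted p 0.0102 to 0.0176).

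**Figure D3:**
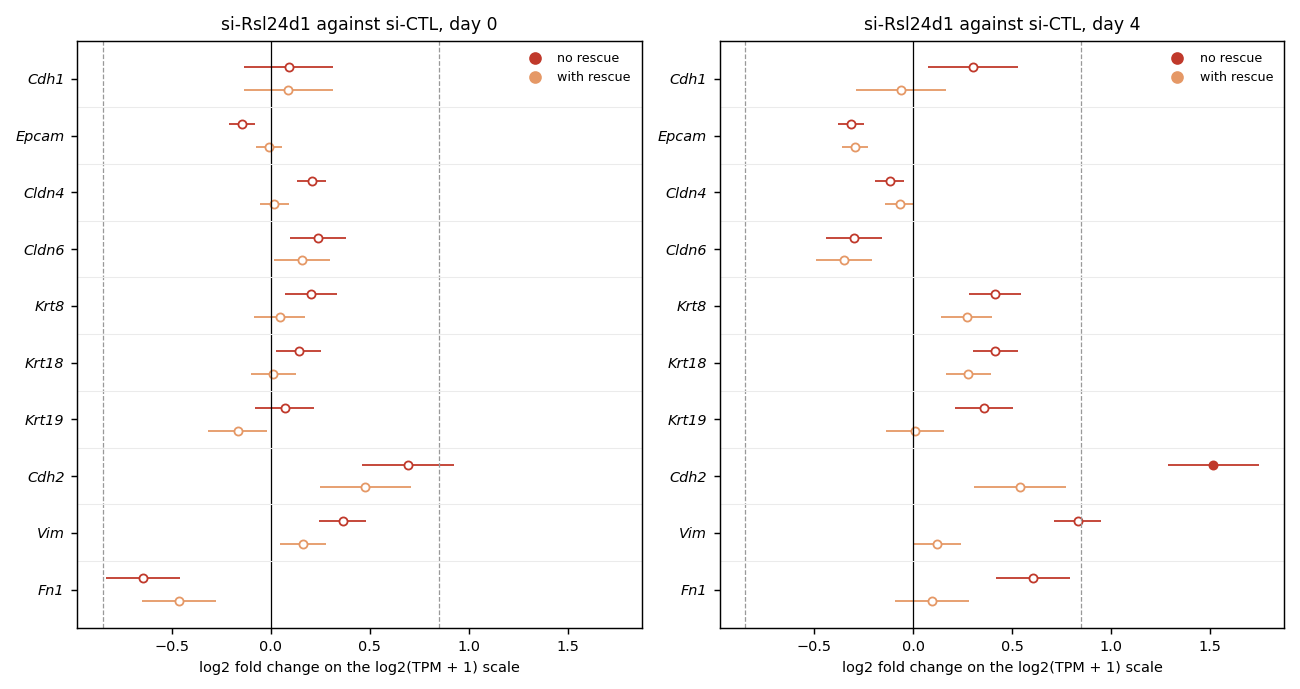
Difference between si-Rsl24d1 and si-CTL libraries (horizontal axis, log2 fold change on the log2(TPM + 1) scale) for each member at day 0 and at day 4, without and with rescue, with 95% intervals from limma. Filled points are called, and dashed lines mark 1.8-fold; only Cdh2 at day 4 without rescue (1.52) is filled, and Fn1 lies below 0 at day 0 (-0.65 and -0.46) and above 0 at day 4 (0.61 and 0.10).

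With rescue, where both siRNA groups had doxycycline, fewer member differences passed the test. None of the 10 members was called at day 0 (5 with an unadjusted p below 0.05 in limma; 1.36% of all genes called) or at day 4 (6 with an unadjusted p below 0.05; 0.730% called). By adjusted p alone 1 rose and 1 fell at day 0 (8.10% and 5.64% of all genes), and 3 rose and 2 fell at day 4 (2.33% and 3.53%). At day 4 Rsl24d1 was 0.15 higher in rescued si-Rsl24d1 cells and did not pass (adjusted p = 0.193). At day 0 it was still 0.50 lower in them (adjusted p = 2.19e-05). Cdh2 was again higher, at 3.17, 3.11 and 3.42 against 2.87, 2.84 and 2.55 (0.48, SE 0.11, adjusted p = 0.00335), a result that missed the threshold without day 0 si-CTL with rescue replicate 3 (adjusted p = 0.0269) or day 0 si-Rsl24d1 with rescue replicate 3 (adjusted p = 0.0254). Fn1 was lower, at 6.96, 6.92 and 7.19 against 7.60, 7.49 and 7.37 (-0.46, adjusted p = 0.00074). Genes over 4000 bases had a median of 0.02 at day 0 and -0.05 at day 4 in these comparisons. The test of whether the siRNA difference at day 0 changed with rescue passed for none of the members (0 called in limma, 4 with an unadjusted p below 0.05). Of all genes 0.128% were called and 2.09% were past the adjusted p. The differences ranged from -0.24 for Krt19 (95% interval -0.45 to -0.03) to 0.18 for Fn1 (-0.08 to 0.45). With the length trend removed, this test passed for Fn1 (0.17, adjusted p = 0.0026) and for Cldn4 (-0.22, adjusted p = 0.0016).

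At day 4 with rescue, Cdh2 was at 3.51, 3.59 and 3.55 against 3.11, 2.86 and 3.06 (0.54, adjusted p = 0.00277; lost without day 4 si-CTL with rescue replicate 2, adjusted p = 0.0228, or without day 4 si-Rsl24d1 with rescue replicate 2 or 3, adjusted p = 0.0162 and 0.0109). Epcam was at 6.71, 6.63 and 6.65 against 6.92, 7.01 and 6.94 (-0.30, adjusted p = 2.56e-06), close to its value without rescue. Cldn6 was 0.35 lower (adjusted p = 0.00191), Krt18 0.28 higher (adjusted p = 0.00191) and Krt8 0.27 higher (adjusted p = 0.00677). The Cldn6 result missed the threshold without day 4 si-CTL with rescue replicate 2 or 3 (adjusted p = 0.0151 each), the Krt18 result without replicate 1 of that group or day 4 si-Rsl24d1 with rescue replicate 2 or 3 (adjusted p 0.0102 to 0.013), and the Krt8 result without any 1 of the 6 libraries (0.0113 to 0.0435). Vim (0.12, 95% interval 0.00 to 0.24), Fn1 (0.10, -0.09 to 0.28), Krt19 (0.01, -0.14 to 0.16) and Cdh1 (-0.06, -0.29 to 0.17) did not pass. Markers of other cell types differed here too. Summed fibroblast or mesenchyme markers were between 121 and 140 TPM in si-CTL and between 159 and 175 TPM in si-Rsl24d1 libraries with rescue (7 and 8 of 9 at 1 TPM or more), endoderm markers between 24.6 and 30.3 and between 36.9 and 38.3 (5 and 6 of 10), and trophoblast markers between 70.2 and 76.5 and between 81.1 and 92.5 (5 and 6 of 8). Their part was not tested.

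Rescued si-Rsl24d1 cells were also set against unrescued ones. At day 0, where Rsl24d1 was 1.55 higher with rescue (adjusted p = 7.57e-11), 7 of 10 members fell and none rose by adjusted p, where 12.2% of all genes fell and 3.06% rose, and none was called in limma (8 with an unadjusted p below 0.05; 0.280% of genes called). Cdh2 fell from 3.77, 3.74 and 3.75 to 3.17, 3.11 and 3.42 (-0.52, SE 0.11, adjusted p = 0.00188; lost without day 0 si-Rsl24d1 with rescue replicate 1 or 2, adjusted p = 0.0124 and 0.0143). The other falls were between -0.41 for Cdh1 and -0.21 for Krt18, where the median of all genes was -0.11 and that of genes over 4000 bases -0.22, and 6 of the 7, all but Cdh2, missed the threshold with median of ratios scaling. Cdh1, Vim, Krt8, Krt18 and Krt19 also missed it without day 0 si-Rsl24d1 with rescue replicate 1 or 2 (adjusted p 0.0113 to 0.0528), and Krt8 without any 1 of the 6 libraries. With the length trend removed Cdh2 was at -0.34 (adjusted p = 0.000764) and Cdh1 at -0.24 (adjusted p = 0.00856). Rsl24d1 at day 4 was at 131 TPM with and 95.1 TPM without rescue in si-Rsl24d1 libraries (0.45, adjusted p = 0.000323). The si-CTL libraries without rescue were at 97.9 TPM on that day, so the day 4 comparison does not start from a depleted level. At day 4 Vim fell from 8.61, 8.88 and 8.75 to 8.19, 8.24 and 8.23 (-0.53, SE 0.06, adjusted p = 9.48e-06) and Cdh2 from 3.88, 4.27 and 4.21 to 3.51, 3.59 and 3.55 (-0.57, adjusted p = 0.00224; lost without day 4 si-Rsl24d1 no rescue replicate 2 or 3 or with rescue replicate 1 or 3, adjusted p 0.0105 to 0.0193). None was called at day 4 (3 with an unadjusted p below 0.05; 0.0851% of genes called and 5.17% past the adjusted p), and Epcam, Krt8 and Krt18 overlapped between the groups. Genes over 4000 bases had a median of -0.09 at day 4. Summed fibroblast or mesenchyme markers there were between 189 and 260 TPM without and between 159 and 175 TPM with rescue, and their part was not tested.

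Doxycycline with ectopic RSL24D1 in si-CTL cells served as the control for the rescue. In these cells Rsl24d1 RNA did not differ at day 0 (0.10, limma adjusted p = 0.286, libraries overlap). At day 4 its difference of 0.27 missed the threshold (adjusted p = 0.0108). None of the 10 members was called at day 0 (4 with an unadjusted p below 0.05 in limma), nor was any of all genes (0%; 6739 with an unadjusted p below 0.05 and 0.0122% past the adjusted p), and none at day 4 (6 with an unadjusted p below 0.05; 0.0547% of genes called and 10.2% past the adjusted p). The widest differences were those of the long members, with opposite signs on the 2 days. Cdh1 was at 7.41, 7.27 and 7.20 with and at 7.87, 7.64 and 7.60 without rescue at day 0 (-0.41, adjusted p = 0.0249), and at 6.74, 6.65 and 6.83 against 6.31, 6.28 and 6.40 at day 4 (0.41, adjusted p = 0.0108). The median of all genes was -0.12 at day 0 and 0.09 at day 4, that of genes over 4000 bases was -0.23 and 0.24, and with the trend removed Cdh1 was at -0.22 and 0.22 (adjusted p of 0.114 and 0.0227). Cdh2 was at -0.31 at day 0 and 0.41 at day 4, and at -0.10 and 0.20 with the trend removed. Between rescued and unrescued si-Rsl24d1 cells, Cdh2 had differed by -0.52 at day 0 and -0.57 at day 4. Fn1 passed at day 4 (0.36, adjusted p = 0.00824), but not without any 1 of 5 of the 6 libraries, all but day 4 si-CTL with rescue replicate 2 (adjusted p 0.0156 to 0.0398), nor with the trend removed (0.04, adjusted p = 0.241).

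Ratios of members within a library do not depend on scaling between libraries. Cdh2 TPM were 3.55 ± 0.178% of Cdh1 TPM in day 0 si-CTL cells (SD, n = 3) and 6.39 ± 0.233% at day 4. In si-Rsl24d1 libraries they were 5.67 ± 0.241% at day 0 and 16.7 ± 0.737% at day 4, and with rescue 5.05 ± 0.155% and 10.6 ± 0.238%. The libraries with and without siRNAs against Rsl24d1 did not overlap on either day, without or with rescue, each with an exact two-sided permutation p of 0.1, the smallest that 3 against 3 libraries can give. In si-CTL cells, doxycycline left the ratio at 3.69 ± 0.331% at day 0 (exact permutation p = 0.7) and 6.67 ± 0.454% at day 4 (exact permutation p = 0.5). Both cadherins have long transcripts, 4430 and 4843 bases, so their ratio is little touched by the length trend.

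The ratio of the keratin partners differed between days in all 4 conditions. Krt18 was 93.1 ± 2.08% of Krt8 in day 0 si-CTL cells and 122 ± 3.09% at day 4. In si-Rsl24d1 libraries it was 89.1 ± 0.632% and 122 ± 1.69%, with rescue 90.6 ± 0.811% and 124 ± 3.33%, and in si-CTL cells with rescue 92.8 ± 3.15% and 123 ± 2.59%. All 12 day 4 libraries lay between 119 and 127% and all 12 day 0 libraries between 88.4 and 95.6%. Krt19, which like Krt18 is a type I keratin, went from 62.8% to 44.1% of Krt18 in si-CTL cells and from 55.8% to 35.7% in rescued si-Rsl24d1 cells. Vim was 96.1% of Krt8 in day 0 si-CTL and 148% in day 4 si-CTL libraries, and 198% in day 4 si-Rsl24d1 libraries. With rescue at day 4 it was lower with the siRNAs, 141% against 156% in si-CTL libraries, without overlap (exact permutation p = 0.1). Cldn6 went from 102% to 80.0% of Cldn4 in si-CTL cells and from 104% to 70.5% in si-Rsl24d1 libraries. For each of these 4 ratios the day 0 and day 4 libraries did not overlap in any of the 4 conditions (exact permutation p = 0.1 each).

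**Figure D4:**
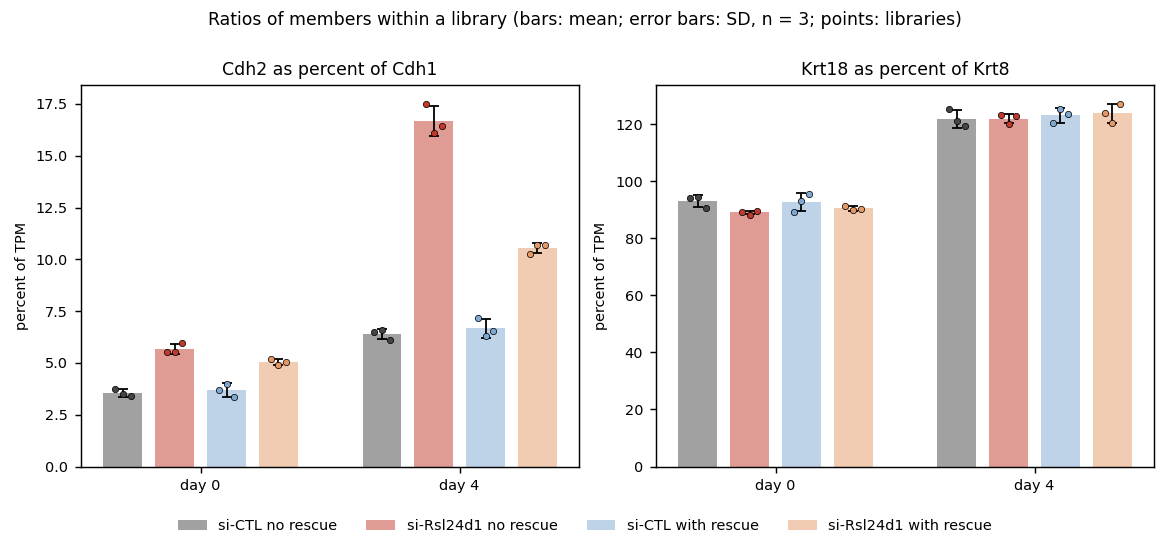
Cdh2 as percent of Cdh1 TPM (left) and Krt18 as percent of Krt8 TPM (right) in the 8 groups, with bars for the mean and error bars for the SD of 3 libraries (points). The cadherin ratio rises from 3.55% in day 0 si-CTL to 16.7% in day 4 si-Rsl24d1 libraries, and the keratin ratio lies below 96% in every day 0 library and above 119% in every day 4 library.

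Related genes were read from 10 lists of 94 tested genes, none of them members. In si-CTL cells under RA, 15 were called higher and 16 lower, where 15.0% of all 16447 tested genes were called, 1114 higher and 1355 lower. Of fibronectin-binding integrins and matrix genes, 6 of 11 were higher and none lower, the highest share of genes called higher among the 10 lists (median 0.88 against -0.10 for all genes). Among them were Postn, a matrix protein of mesenchyme (2.83, SE 0.08, adjusted p = 2.89e-16), Tnc, the matrix protein tenascin C (2.60, SE 0.09, adjusted p = 1.04e-14) and Tgfbi (2.04, SE 0.09, adjusted p = 2.3e-13). Of 6 EMT transcription factors, the repressors Zeb1 (1.11, adjusted p = 2.53e-07) and Snai2 (0.86, adjusted p = 5.71e-08) were called higher and none lower. Among 13 mesenchymal surface and secreted genes, the gelatinase gene Mmp2 (1.93, adjusted p = 1.26e-14) and Tagln, an actin-binding protein of smooth muscle (6.73 at day 0 and 8.53 at day 4, adjusted p = 1.92e-16), were higher and Thy1 was lower (-1.44).

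Of 15 epithelial regulators and surface proteases 1 was higher and 4 were lower, with Klf5 (-1.86) and the splicing regulators Esrp1 and Esrp2 (-1.32 each) among the latter. Of 13 tight junction genes 1 was higher, Cldn3 (1.09), and 2 were lower, with Cgn (-0.85) among them. Nectin1 was lower (-1.40) among 9 adherens junction genes, and Jup, the catenin shared with desmosomes, was lower (-0.97) among 7 desmosome genes. None of 4 other cadherins was called in limma (3 with an unadjusted p below 0.05). Of 6 other keratins Krt7 (2.27) and Krt20 (1.57) were higher, and Krt17 (-1.93) and Krt42 (-1.22) lower. Of 10 other intermediate filament genes, the muscle desmin gene Des was higher (2.00) and 5 were lower, led by the neuronal Nefl (-2.39) and Ina (-1.70). The adjusted p of each of these was at most 1.58e-08.

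With the siRNAs at day 0, 6 of the 94 were called higher and 1 lower (4.18% of all genes called), with a median of 0.03 against -0.01 for all genes. Perp, a p53 target of desmosomes (1.97, SE 0.06, adjusted p = 1.27e-15), the filament genes Synm (1.85) and Prph (1.21), Twist1 (0.97, SE 0.10, adjusted p = 1.95e-07), the matriptase gene St14 (0.89) and Krt15 (0.86) were higher, and Krt17 was lower (-0.96). None of the 11 fibronectin-binding integrins and matrix genes was called in limma (7 with an unadjusted p below 0.05), and by adjusted p alone 1 fell, the fibronectin receptor subunit gene Itga5 (-0.68, adjusted p = 8.18e-07), named here after its value was seen. In the libraries labelled si-Rsl24d1 at day 4, 10 of the 94 were called higher and none lower (1.63% of all genes called), 5 of them among those 11 genes (median 0.68 against 0.13 for all genes and 0.29 for genes over 4000 bases), with Tnc at 1.87 and Postn at 1.31, and Twist1 was at 1.51 (adjusted p = 2.45e-09). With rescue none of the 94 was called at day 4 in limma (36 with an unadjusted p below 0.05), and by adjusted p alone 7 were higher and 5 lower. Twist1 at 0.847 (adjusted p = 1.27e-05) and Tnc at 0.843 (adjusted p = 5.82e-06) were then just under the fold threshold of 0.848. Postn was at 0.38 (adjusted p = 0.00366).

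**Figure D5:**
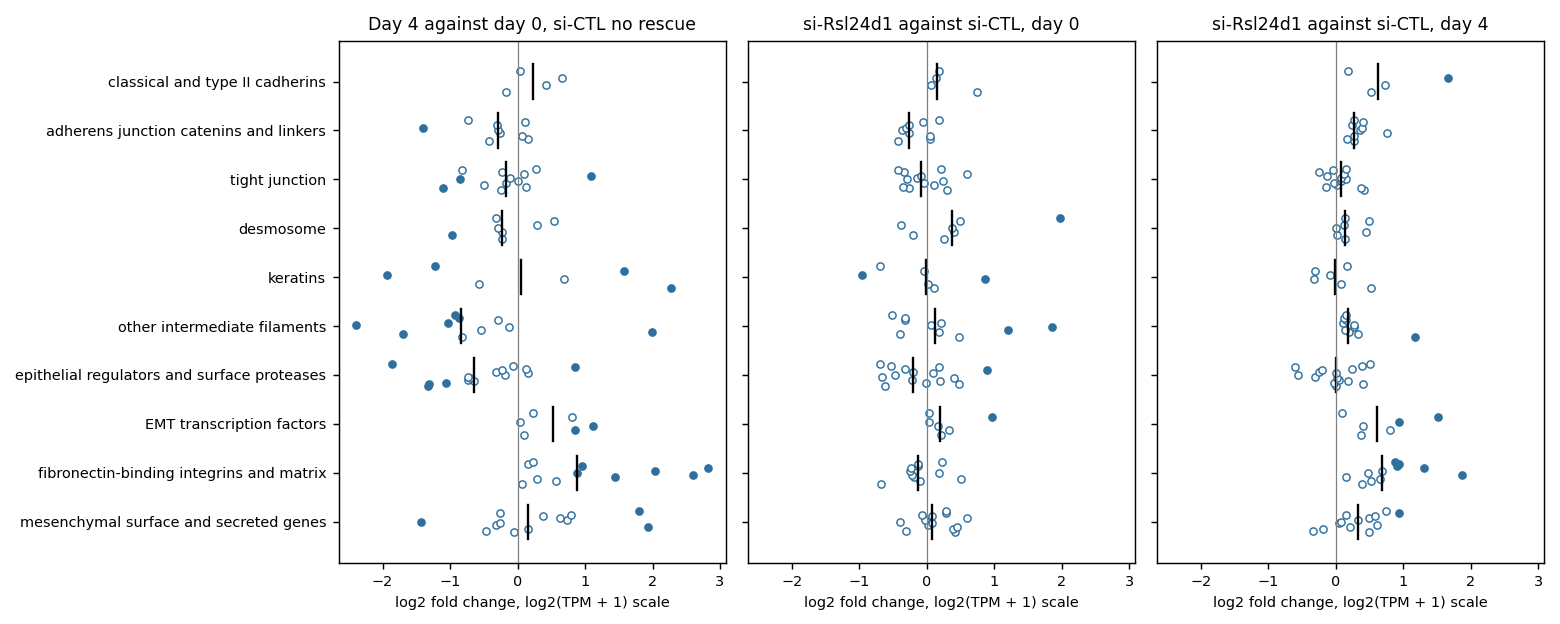
Change of the 94 tested genes of 10 related lists (horizontal axis, log2 fold change on the log2(TPM + 1) scale) under RA in si-CTL cells, with the siRNAs at day 0 and with the siRNAs at day 4. Points are genes, filled where called, and vertical bars are list medians; fibronectin-binding integrins and matrix genes have a median of 0.88 under RA, -0.13 with the siRNAs at day 0 and 0.68 at day 4.

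The genes whose 8 group means, each centred on its own mean, lay closest to those of 3 members were listed as a description, over 8 groups and with no test. For Cdh1 they were Urb1, Prpf8 and Qser1 (root mean square difference 0.0677, 0.0685 and 0.0726). For Krt8 they were Fam120c (0.0523), Hnf4a (0.0543) and Zbtb46 (0.0574), and for Vim Snai2 (0.0625), Gab2 (0.0786) and Msrb3 (0.0816). Several of these are low genes, whose changes the log2(TPM + 1) scale understates. Group means were between 0.61 and 1.09 for Fam120c and between 0.50 and 1.04 for Hnf4a, against 7.14 to 7.77 for Krt8. Those of Snai2 were between 0.80 and 2.49, against 7.10 to 8.75 for Vim. Among the members themselves, the closest pairs were Cldn6 with Epcam (0.116) and Krt8 with Krt19 (0.120). Many other genes lay closer: among all tested genes Epcam had rank 79 for Cldn6, and Cldn6 rank 236 for Epcam. Krt19 had rank 400 for Krt8, and Krt8 rank 943 for Krt19. The member closest to Cdh1, Cldn6, differed from it by 0.339.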

How the data were processed

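RNA-seq of 24 CGR8 libraries, 3 in each of 8 groups read from the labels, was analysed. The deposited values are log2(TPM + 1) per gene symbol, made by the authors with Salmon and tximport. The labels name STAR 2.7.8a, Salmon 1.4.0, GRCh38 and a poly-A kit, whereas the methods of the study name GRCm38, other versions and a stranded total-RNA kit, a conflict that could not be settled. The TPM sum to 1000000 in each library, so depth is unknown and no counting interval can be given. No count test was run. The highest correlation between libraries was 0.99116, and 0 pairs were identical.

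The 16447 genes whose mean log2(TPM + 1) reached 0.5 were fitted with limma 3.58.1 in R 4.3.3 (8 group means, intensity trend, two-sided, Benjamini-Hochberg adjustment over all tested genes). The estimate of a gene's spread is shared by the 8 groups, so its SE is the same where groups differ in spread. "Rose" and "fell" stand for an adjusted p below 0.01, and called for that and a change over 1.8-fold, the thresholds of the study. Fold changes are on the log2(TPM + 1) scale and understate those of low genes; a fold given beside them is the ratio of mean TPM. Ratios within libraries were compared by exact permutation.

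Transcript lengths and coordinates are those of GENCODE on GRCm38, and 98.03% of tested genes had a length. Symbols, not identifiers, link them to the values. The members, lists and tests were chosen with earlier results of these data known. Named genes were the 10 members, Rsl24d1, and from each list at most 3 called genes per direction in the RA response of si-CTL and 2 in the day 0 siRNA comparison, their values in other comparisons, and the 3 closest genes for Cdh1, Krt8 and Vim. Some genes that meet this rule are not reported here. Alternatives were 0.1 or 2 added to the TPM, no filter or one at 1.5, median of ratios scaling, a replicate block, a fit of only the groups compared and each library left out; removal of a length trend (lowess of each library's deviations over log10 transcript length) was added after seeing the data. The fit was tested on simulated data.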

Additional observations from a re-analysis of the deposited data

Results flagged for a closer look

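For 7 of the 10 members, the difference between si-Rsl24d1 and si-CTL libraries without rescue differed between day 0 and day 4 in a limma test of the difference itself (day 4 minus day 0, log2 scale), 4 with a positive and 3 with a negative value, where 22.1% and 8.83% of all genes passed. The values were 1.25 for Fn1 (adjusted p = 2.37e-07), 0.82 for Cdh2 (adjusted p = 0.000316), 0.47 for Vim (adjusted p = 0.000116), 0.28 for Krt18 (adjusted p = 0.00669), -0.17 for Epcam (adjusted p = 0.00507), -0.33 for Cldn4 (adjusted p = 3.41e-05) and -0.54 for Cldn6 (adjusted p = 0.000182). Fn1, Cldn4 and Cldn6 had opposite signs on the 2 days. The Krt18 result missed the threshold without any 1 of 6 and the Epcam result without any 1 of 7 of the 12 libraries. Rsl24d1 was 1.95 lower with its siRNAs at day 0 and did not differ at day 4. The median of all genes was 0.14 in this test and that of genes over 4000 bases 0.29, and with the length trend removed Fn1 was at 0.94 and Cdh2 at 0.60.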

How the results depend on the processing

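Of 68 member results past the adjusted p, none reversed under the alternatives, and 863 of 994 alternative values stayed past it, 370 of 450 with 1 library left out. Of the 72 results not past it, 31 of 1086 alternative values passed, 2 of them with another sign, both for Fn1 with the length trend removed. The number of members called changed from 1 to 2 under RA in si-CTL cells with median of ratios scaling (Vim added), and from 1 to 2 for the siRNA difference by day with 0.1 added to the TPM. With 1 library left out it was between 1 and 2 at day 4 for the siRNA difference (2 without day 4 si-Rsl24d1 no rescue replicate 1) and between 1 and 2 for that difference by day (2 without day 0 si-CTL no rescue replicate 2 or 3 or day 4 si-Rsl24d1 no rescue replicate 1). The cause was not tested. All 10 member calls were kept with the length trend removed. The replicate block left every number of members called as it was (1 under RA in si-CTL cells, 1 at day 4 for the siRNA difference) and took 8 member results below the threshold. Replicate numbers did not pair the libraries (r of same-numbered libraries -0.19 to 0.17). A fit of only the groups compared took 22 results below the threshold, with fewer libraries behind the spread. Median of ratios scaling moved the median of all genes by over 0.1 in 7 comparisons, by -0.13 at day 4 for the siRNA difference and by 0.10 under RA in si-CTL cells. There it changed the genes called from 1114 higher and 1355 lower to 1391 and 975, and at day 4 from 238 and 30 to 118 and 48. All genes called at day 4 were 268, 601 with 0.1 added, 158 with 2 added, 166 with scaling and 139 with the length trend removed. They were 687 at day 0, 1224 with 0.1 added, and 2469 under RA in si-CTL cells, 3796 with 0.1 added. For the rescue of si-Rsl24d1 cells at day 0 they were 46 (5 higher and 41 lower), 151 with 0.1 added, 25 with 2 added, 24 with scaling (12 and 12), 21 with the length trend removed and 83 without day 0 si-Rsl24d1 with rescue replicate 3. With 0.1 added they went from 2559 to 3884 under RA in si-CTL cells with rescue, from 922 to 1452 for the siRNA difference by day, from 21 to 32 for that difference by rescue (12 with 2 added) and from 224 to 460 for it with rescue at day 0, and with 2 added from 120 to 78 at day 4. For the rescue at day 4 they were 14, 41 with 0.1 added, 8 with 2 added and 7 in a fit of only the groups compared, and for doxycycline in si-CTL cells 0 at day 0 (4 in a fit of only the groups compared) and 9 at day 4 (34 with 0.1 added, 2 with no filter, 1 to 29 with 1 library left out). The split of higher against lower also changed under RA in si-CTL cells with rescue (1767 and 792 to 1364 and 1072 with scaling) and for the siRNA difference by day (477 and 445 to 281 and 576). With an unknown depth, each group mean rests on 3 libraries, and the spread used by limma on all 24.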
